A study of Mus musculus with 8 samples.

Results

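The flavin monooxygenase genes Fmo1, Fmo2, Fmo4 and Fmo5 were followed in epithelium of the dorsal pancreas, dissected from mouse embryos at e12.5, with and without the transcription factor gene Sox9. The members are all non-control probes that the scanner files name for one of these 4 genes, which gave 9 of the 41174 probes and 4 of the 27828 gene names on the array: 2 probes for Fmo1, 3 for Fmo2, 1 for Fmo4 and 3 for Fmo5. The family was picked because Fmo2 was far lower in the mutant samples, so the Fmo2 difference is given as a description without a test, and the values of the other members, which come from the same comparison, support nothing about why the family was chosen.

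RNA was measured on 8 single-colour Agilent arrays, 4 per genotype, in a comparison that asks which genes depend on Sox9 in the early pancreas. The mutant embryos were Sox9 fl/fl and carried Pdx1-Cre. Their wild-type littermates were also Sox9 fl/fl and had no Cre, so Cre and the loss of Sox9 are the same split of the samples. The Sox9-flox line had a mixed FVB/N x C57Bl/6J background and Pdx1-Cre a C57Bl/6J background. Pdx1-Cre recombines in cells that use the Pdx1 promoter, so mesenchyme, vessels and blood cells of the tissue are not its target. Each RNA was a pool from 3 embryos and 250 ng was labelled, and the series text speaks of 3 biological replicates where 4 arrays per genotype are present.

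Flavin monooxygenases are enzymes of the endoplasmic reticulum membrane. They take electrons from NADPH, bind oxygen on their FAD cofactor, and add an oxygen atom to nitrogen or sulfur atoms of small molecules, among them drugs, plant amines and cysteamine. Fmo1 is known from adult mouse liver and kidney and also oxidises hypotaurine to taurine. Fmo2 is best known as the form of the lung, Fmo4 is a little studied form of low level, and Fmo5 differs from the others in favouring oxygen insertion next to a carbonyl group. In the mouse genome Fmo1, Fmo2 and Fmo4 lie in 1 cluster on chromosome 1, and Fmo5 lies alone on chromosome 3.

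The probes that carry the values below are shown by the first 30 of their 60 bases, 5′ to 3′, since each probe reads only the short stretch it was built for. Positions are on mouse assembly mm8, as the scanner files list them, and no annotation of that assembly was used here to place them in exons or UTRs.
Fmo2, probe A_51_P301998, chr1:164713371-164713430, minus strand: cttctttttccaacttcaggggttttaatc
Fmo2, probe A_52_P273891, chr1:164712074-164712133, minus strand: acattataggtaagaaaagcaaatctcagc
Fmo1, probe A_52_P508991, chr1:164666581-164666640, minus strand: gatctaactggcttttcaaatgtatggagt
Fmo4, probe A_52_P471282, chr1:164630653-164630712, minus strand: ttcttgaattggtacaaggtaagctaccga
Fmo5, probe A_52_P460767, chr3:97737653-97737712, plus strand: agctagacctcgctggatgataacccatct
Fmo5, probe A_51_P468005, chr3:97737582-97737641, plus strand: cttcatcatctttgtatgtcattagcaggg
The longest run of identical bases between any 2 probes of different Fmo genes was 9 bases, over 59 such pairs on the array.

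A level below is the log2 of the processed signal minus the 75th percentile of that array, so that 0 is a bright spot and a value near -5 lies close to background. Between 59.4% and 77.7% of spots were well above background on each array. A probe was tested where 4 or more of the 8 arrays marked it well above background. Of the 9 Fmo probes 5 passed, or 55.6%, against 66.5% of all probes. They stand for Fmo1, Fmo2 and Fmo5. Sox9 itself had a difference of -2.70 (SE 0.517, adjusted p = 0.0253 in limma), with levels of 1.82 to 3.01 on the wild-type and -1.79 to 0.77 on the mutant arrays, and lost the call without wild-type replicate 1, 2 or 4 or mutant replicate 1 (adjusted p up to 0.0732 in limma). Genes of the Y chromosome differed between pools, low in 3 of the wild-type and in none of the mutant ones (Ddx3y from -7.43 to -0.82 on the wild-type and from -1.37 to 0.11 on the mutant arrays), and the part of embryo sex in the Fmo values was not tested. The arrays lay on 3 slides, each with both genotypes. In limma, 994 of 18506 genes passed an adjusted p of 0.05, which is 5.37%, and 3.81% were lower and 1.56% higher in the mutant.

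By its brighter probe, Fmo2 was lower on every mutant array than on any wild-type array. This probe, A_51_P301998, had levels of -1.12, -1.41, -1.26 and -1.18 on wild-type arrays 1 to 4. On mutant arrays 1 to 4 its levels were -4.99, -6.55, -5.20 and -3.66. The 4 wild-type arrays lay close together and all 4 mutant arrays lay far below them, spread over a wide range. The means were -1.24 ± 0.12 (SD, n = 4) and -5.10 ± 1.18 (SD, n = 4). The difference was -3.86 (SE 0.515), or 14.5-fold lower in the mutant by these signals, part of which lie at background. The family was picked on this value. Groups did not overlap in 15.2% of the 18506 genes, and in 7.98% the mutant was the lower one, from which nothing is read for Fmo2. In a dissected tissue, fewer cells of a type and less RNA per cell cannot be told apart, here and in every value that follows.

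The wild-type signal of Fmo2 was well above background and part of the mutant signal was not. On the linear scale the processed signals of the brighter probe were 170.8, 233.6, 219.6 and 282.6 on the wild-type arrays and 19.4, 5.6, 11.3 and 49.4 on the mutant arrays. Mutant arrays 1 and 4 were well above background and mutant arrays 2 and 3 were not. The size of the difference moved with the treatment of background. In the authors' value table it was -2.0, or 3.99-fold, and with normexp background correction it was -1.87, or 3.65-fold. In both, the groups did not overlap. Within slides 1, 2 and 3 the difference was -3.79, -3.06 and -5.40.

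The second Fmo2 probe, A_52_P273891, lies in the same region as the first and showed a smaller difference. Its levels were -2.96, -4.07, -2.99 and -3.67 on the wild-type arrays and -4.23, -6.09, -5.45 and -4.02 on the mutant arrays. The groups overlapped, since wild-type array 2 lay just below mutant array 4. The means were -3.42 ± 0.54 and -4.95 ± 0.99 (SD, n = 4 each), a difference of -1.52 or 2.87-fold. This probe, too, was well above background on 4 wild-type and 2 mutant arrays. Its difference was -0.52 in the authors' value table, where the groups did not overlap, and -0.46 with normexp, where they did. The remaining probe, A_52_P1138659 at chr1:164724845-164724904, was above background on no array and gives no level. With the mean of the kept probes, the difference of Fmo2 was -2.69.

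**Figure D1:**
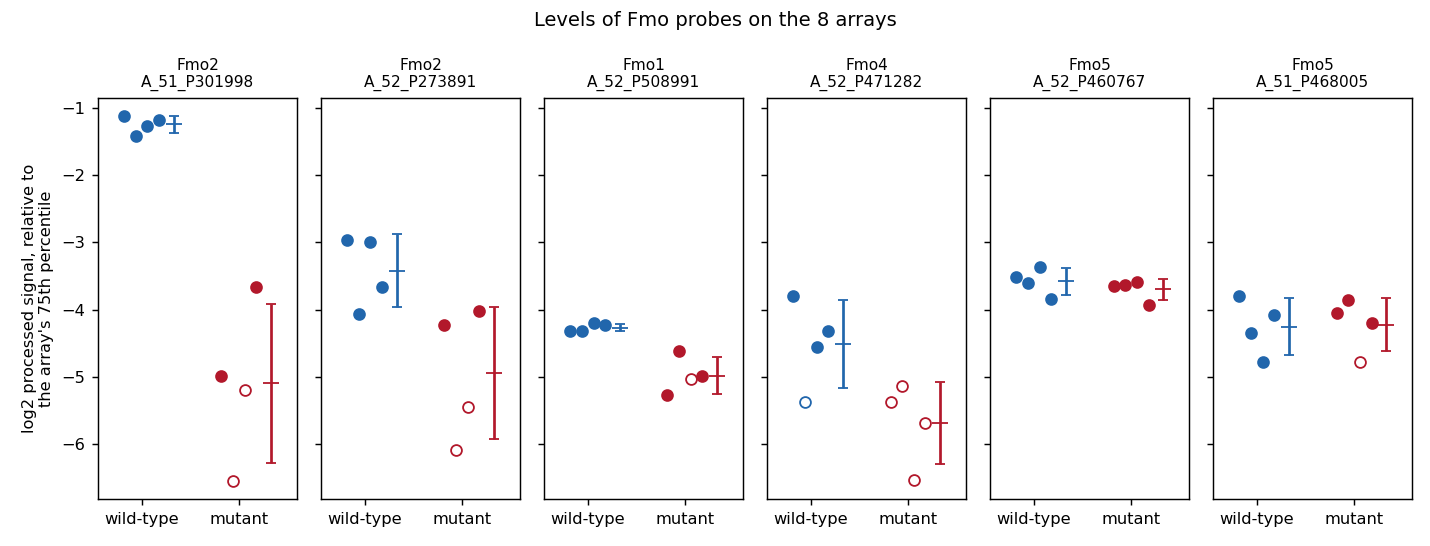
Levels of 6 Fmo probes on each array, as the log2 processed signal minus the array's 75th percentile (vertical axis), for 4 wild-type arrays (blue) and 4 mutant arrays (red), with the mean and SD beside the points. Open circles were not well above background on that array. Heights are not comparable between probes. The brighter Fmo2 probe lies between -1.41 and -1.12 on the wild-type and between -6.55 and -3.66 on the mutant arrays, while the groups of both Fmo5 probes overlap.

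Markers of epithelium were lower on the same 4 mutant arrays. Of 23 tested genes on a list of epithelial markers, 19 fell in limma and all 23 had a difference below 0. Over all genes tested, 3.81% fell in limma and 47.2% had a difference below 0. The median of the list was -2.12 against a median of 0.016 over all genes tested. Among them were Cdh1, the epithelial cadherin (-2.51, adjusted p = 0.0140 in limma), and Epcam, an epithelial adhesion molecule (-2.12, adjusted p = 0.0137 in limma). The mean level of the 23 genes was 1.35, 0.91, 1.11 and 1.03 on wild-type arrays 1 to 4 and -0.64, -1.29, -1.02 and -0.0095 on mutant arrays 1 to 4. Mutant array 4 was the highest of the mutant arrays for Fmo2 and for this mean, and mutant array 1 came next in both. Arrays 2 and 3 were lowest in both, but have no order for Fmo2, which was not well above background there. Fmo2's difference of -3.86 lay below the median of the list, and in the authors' value table Fmo2 gave -2.0 beside -2.41 for Cdh1 and -2.01 for Epcam. The part of the epithelial share in the Fmo2 values was not tested.

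**Figure D2:**
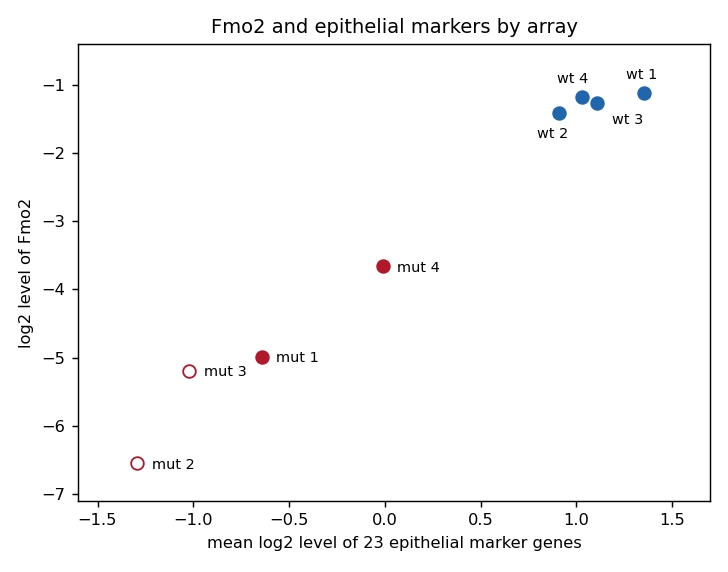
Log2 level of the brighter Fmo2 probe (vertical axis) against the mean log2 level of 23 epithelial marker genes (horizontal axis) on each of the 8 arrays, both relative to the array's 75th percentile. Blue points are wild-type and red points mutant arrays, and open circles are arrays where Fmo2 was not well above background. The wild-type arrays sit together at the upper right, and mutant array 4 lies highest among the mutant arrays on both axes.

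Lists for other cells of the dissected tissue did not share this direction in every case. The counts below stand beside 3.81% of all genes that fell and 1.56% that rose in limma. Of 18 pancreatic progenitor genes 17 fell in limma, with a median of -2.59, and of 18 endocrine genes 9 fell, with a median of -1.27. Of 18 mesenchyme genes 4 rose (median 0.63), of 10 mesothelium genes 3 rose (median 0.80), of 14 endothelium genes 2 rose (median 0.44) and of 11 macrophage genes 5 rose (median 0.63). The liver is a site of Fmo1, and of 11 hepatocyte genes 2 rose and 2 fell, so that the calls had no single direction. The median of this list was 0.36, and 4 of the 11 genes had a difference below 0. Alb, serum albumin, rose by 3.48 and Afp, alpha-fetoprotein, by 2.23 (adjusted p = 0.0233 and 0.00813 in limma), while Hnf4a, a nuclear receptor of endoderm, fell by 1.5 and Serpina1b, a protease inhibitor of plasma, by 1.18 (adjusted p = 0.0103 and 0.0131 in limma). Among those that did not pass, Ttr, transthyretin, was at -0.30 and Fgg, a fibrinogen chain, at -0.47. The others that did not pass lay above 0: Ahsg at 2.56, Apoa2 at 1.59, Apoa1 at 1.29, Trf at 0.36 and Fgb at 0.11. The call of Alb was lost without wild-type replicate 1, 2 or 4 or mutant replicate 1 (adjusted p of 0.0543 to 0.0705 in limma). The lung is a site of Fmo2. Of 20 genes of stomach, duodenum and lung 9 were tested and 2 fell, with a median of 0.10. Those 2 were Tff3 (-0.82) and Vil1 (-0.96), while the airway genes Scgb1a1 (-0.04) and Foxj1 (-0.57) did not pass in limma. Of 10 genes of neural crest and neurons 3 fell, with a median of -0.65. Those that fell included Erbb3, a receptor of glial precursors (-2.36), and Sox10, a factor of neural crest (-1.54). Their adjusted p was 0.00813 and 0.0137 in limma. In this list 7 genes had a difference below 0, while Ngfr (0.63), Stmn2 (0.60) and Hand2 (0.17) lay above 0 and did not pass. Of 13 erythroid genes none passed in limma, with 6 at an unadjusted p under 0.05 and a median of 0.44.

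Fmo1 was dim in both genotypes and lay lower in the mutant. Probe A_52_P508991 had levels of -4.32, -4.32, -4.20 and -4.23 on the wild-type arrays and of -5.28, -4.62, -5.04 and -4.99 on the mutant arrays. The wild-type arrays lay within a narrow range and the groups did not overlap. The means were -4.27 ± 0.059 and -4.98 ± 0.27 (SD, n = 4 each), a difference of -0.72 (SE 0.145, adjusted p = 0.0307 in limma), or 1.64-fold lower. Adjusted over all probes tested, of which 3.75% passed, p was 0.0383 in limma. Groups did not overlap for 13.4% of all probes tested. They did not overlap for this probe and overlapped for both tested Fmo5 probes, and the count over the Fmo2 probes is left out because the family was picked on one of them.

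The call of Fmo1 rested on the treatment of dim signal and on single arrays. Its processed signals were 18.6, 31.1, 28.6 and 34.0 on the wild-type arrays and 15.9, 21.1 and 19.6 on mutant arrays 1, 2 and 4, with mutant array 3 lower than any of these, and before scaling the groups overlapped. The probe was well above background on 4 wild-type and 3 mutant arrays, mutant array 3 being the exception. The difference was -0.20 with normexp (adjusted p = 0.553 in limma) and -0.17 in the authors' value table (adjusted p = 0.457), and in both the groups overlapped. It passed the threshold in 5 of 19 alternatives, with adjusted p from 0.0120 to 0.604 in limma. Leaving out any single array ended the call (adjusted p of 0.0618 to 0.0896 in limma) except for mutant replicate 2, without which the difference was -0.83 (adjusted p = 0.0252). Within slides 1, 2 and 3 it was -0.72, -0.93 and -0.35. The second Fmo1 probe, A_52_P408245 at chr1:164668253-164668312, was above background on no array.

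Fmo4 was above background on wild-type arrays only. Its single probe, A_52_P471282, had levels of -3.80, -5.38, -4.56 and -4.33 on the wild-type and of -5.37, -5.14, -6.54 and -5.70 on the mutant arrays. It was well above background on wild-type arrays 1, 3 and 4, and not on wild-type array 2 or on any mutant array. With 3 of 8 arrays it was not tested. Wild-type array 2 lay among the mutant arrays, so the groups overlapped. The means were -4.52 ± 0.66 and -5.69 ± 0.61 (SD, n = 4 each), and the difference of -1.17 is in part set by background. No fold is given, since wild-type array 2 has no measured level either. In the authors' value table the difference was -0.14 and with normexp it was -0.28.

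Fmo5 showed no difference past the threshold, and it was the member measured most completely. Probe A_52_P460767 was well above background on all 8 arrays, with levels of -3.51, -3.61, -3.36 and -3.84 on the wild-type and of -3.65, -3.64, -3.59 and -3.93 on the mutant arrays. The groups overlapped over most of their range. The means were -3.58 ± 0.20 and -3.70 ± 0.15 (SD, n = 4 each). The difference was -0.12 (SE 0.138, adjusted p = 0.777 in limma), and an interval of 2 SE on each side ran from -0.40 to 0.16. The direction was not stable, since the difference was 0.086 with quantile normalization and 0.019 with median scaling.

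The other Fmo5 probes did not differ past the threshold either. Probe A_51_P468005, which lies beside the first, gave levels of -4.78 to -3.80 on the wild-type and of -4.78 to -3.85 on the mutant arrays, a difference of 0.03 (SE 0.262, adjusted p = 0.981 in limma, over all probes tested). It was well above background on 7 arrays. The last one, A_52_P1147453 at chr3:97738870-97738929, was above background on no array.

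**Figure D3:**
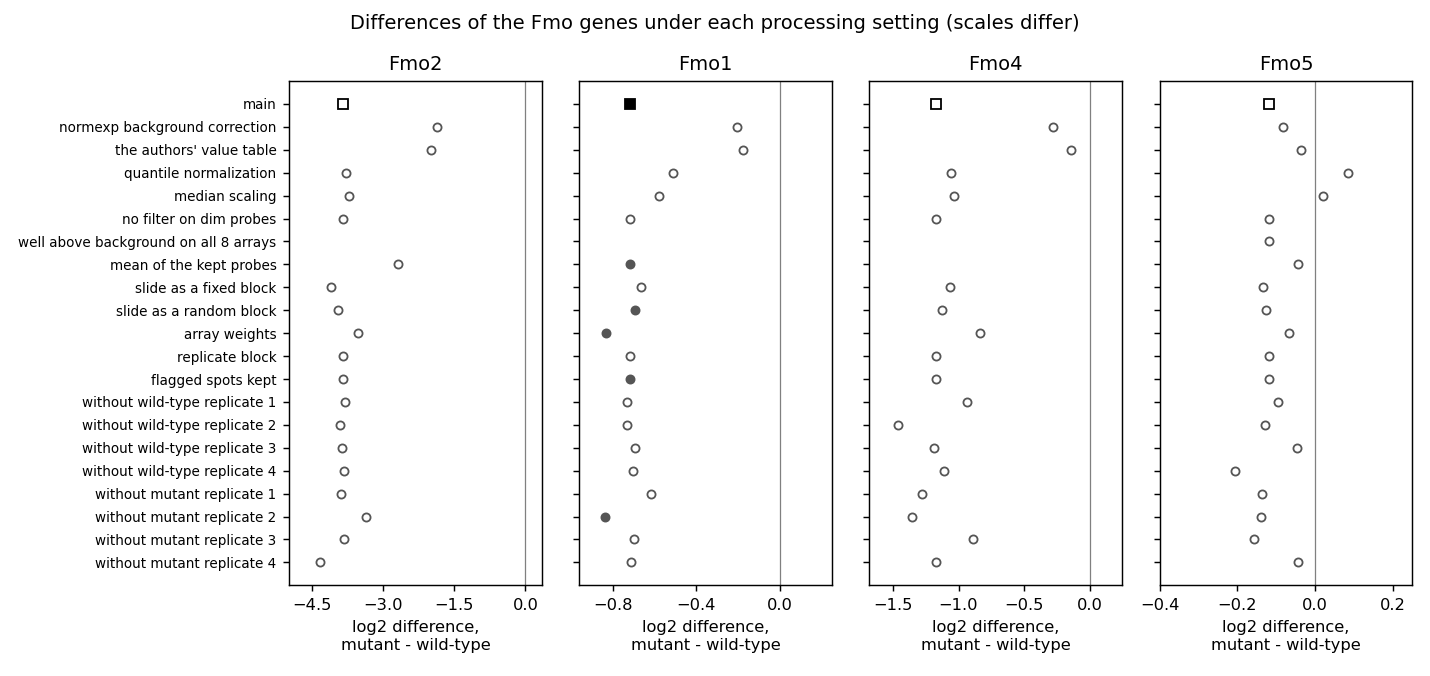
Log2 difference between mutant and wild-type arrays (horizontal axes, with a scale of their own for each gene) for Fmo2, Fmo1, Fmo4 and Fmo5 under the main setting (square) and each alternative (circles). Filled symbols passed an adjusted p of 0.05 in limma; Fmo2 and Fmo4 carry no test and are drawn open. Fmo2 lies at -1.87 or lower in every row where it has a value, Fmo1 moves from -0.72 to -0.17 in the authors' value table, and Fmo5 lies on both sides of 0.

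Fmo6 and Fmo9 were well above background on few arrays or none. Fmo6, whose probe also lies in the cluster on chromosome 1, was well above background on no array. Fmo9, which the array design lists under an older clone name, was well above background on wild-type array 3, at a level of -3.08, and on mutant array 1, at -5.22. Neither was tested.

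Genes beside the Fmo genes were looked at because cluster members share a stretch of chromosome. The Fmo probes of chromosome 1, leaving out Fmo9, span 160.0 kb. Within 500 kb of a member probe there, 13 other names are on the array and 9 were tested. Of these 1 passed the threshold, or 1 of 9 where 5.37% of all genes passed. It was AK081699, a cDNA clone, at -0.77 (adjusted p = 0.0347 in limma), and its call was kept only without wild-type replicate 1 or mutant replicate 4 and lost in the other 6 fits that left out an array (adjusted p of 0.0685 to 0.102 in limma). The 9 differences ran from -0.77 to 0.20 with a median of -0.17. They included Vamp4, a vesicle fusion protein (0.12), Myoc, the secreted protein myocilin (-0.17), Prrx1, a homeobox factor of mesenchyme (-0.09), and Gorab, a Golgi protein (0.20). Around Fmo5, 12 genes were tested and none passed in limma, with 2 at an unadjusted p under 0.05. Their differences ran from -0.43 to 0.30 with a median of -0.14, and included Chd1l, a chromatin remodeller, at -0.40, and Prkab2, a subunit of the AMP-activated kinase, at -0.21.

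**Figure D4:**
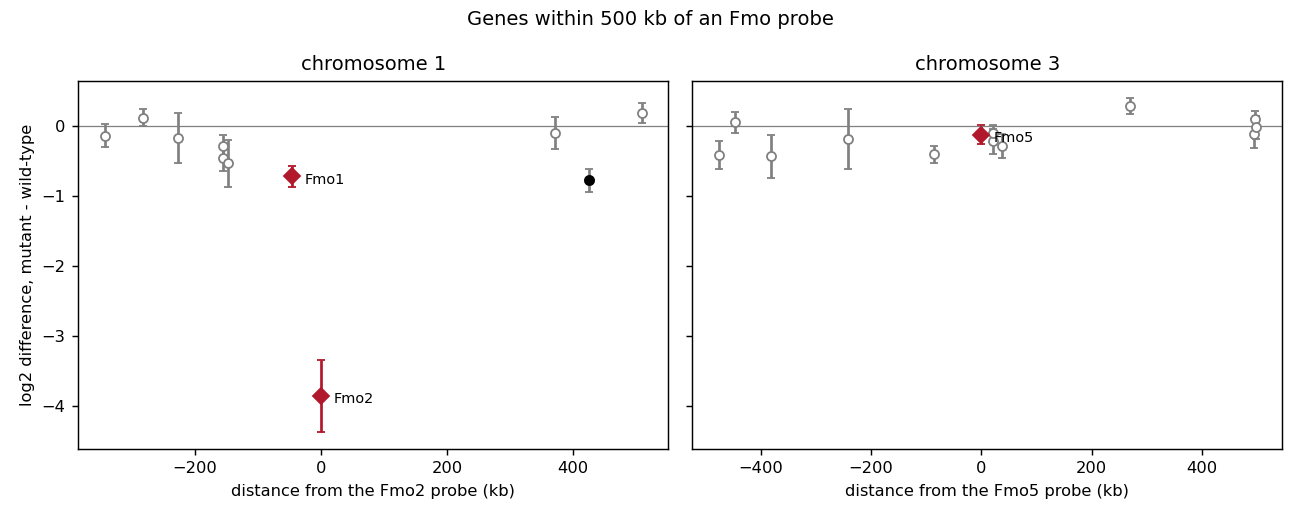
Log2 difference between mutant and wild-type arrays with its SE (vertical axis) for genes whose probes lie within 500 kb of an Fmo probe, against the distance in kb from the Fmo2 probe on chromosome 1 and from the Fmo5 probe on chromosome 3. Red diamonds are Fmo genes, and the filled black circle is the other gene that passed an adjusted p of 0.05 in limma. Fmo2 lies at -3.86, and the neighbours lie between -0.77 and 0.30.

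The starts of the genes were read for the letters that Sox proteins recognise, because the samples differ in Sox9. Windows of 300 bases, 250 before and 50 after a start, came from RefSeq on GRCm38.p6, a later assembly than that of the probe positions. RefSeq windows were found for Fmo2, Fmo4 and Fmo5. On both strands, ACAAT was in 31.0% of 32851 windows, ACAAAG in 18.7% and either in 42.9%. The windows of Fmo4 and Fmo5 held neither. Fmo2 has 2 listed starts, and the window of the farther upstream start (chr1:162898709-162899008, minus strand) also held neither. The 100 bases that end at this start are given first below. The window of the downstream start (chr1:162898444-162898743, minus strand) held 3 matches, at bases 163, 219 and 235 counted from its 5′ end. A stretch of 30 bases with the last 2 of them is given second, with the matches in capitals, CTTTGT being ACAAAG on the other strand.
Fmo2, upstream start, chr1:162898759-162898858: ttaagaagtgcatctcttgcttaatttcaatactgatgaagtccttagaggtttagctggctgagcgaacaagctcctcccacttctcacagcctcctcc
Fmo2, downstream start, chr1:162898500-162898529: aggaCTTTGTaaacacgtttACAATgaagg
The matches describe these letters only, and binding was not measured.

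The genes most like Fmo2 over the 8 arrays were genes that were lower in the mutant. By Pearson's r of the log2 level over 8 arrays, as a description of a list chosen for its likeness, they were Nkx6-1 (0.996), a homeobox factor of pancreatic progenitors and beta cells, Fgfr2 (0.996), a receptor for mesenchymal Fgf10, Cadps (0.993), a protein of vesicle release, Slc28a3 (0.992), a nucleoside transporter, and Slc44a4 (0.992), a transporter of choline type that was above background on no mutant array. The genotype difference is part of each of these values, and the median over all genes was -0.039. Fmo2 itself was well above background on only 2 mutant arrays, so each r rests in part on signal at background. Nkx6-1 had levels of 3.88 to 4.27 on the wild-type arrays and of 0.22, -0.79, 0.12 and 2.03 on mutant arrays 1 to 4, so that array 4 was the highest of them, as for Fmo2. Fgfr2 had levels of 0.21 to 0.33 on the wild-type arrays and of -1.14, -1.51, -1.26 and -0.55 on the mutant arrays. Fmo1 stood at 0.761 to Fmo2 and Fmo5 at 0.177.

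Fmo1 and Fmo5 had other genes at the head of their lists. The genes most like Fmo1 were Aaas, a nuclear pore protein (r = 0.982), Kcnc2, a potassium channel (0.976), which was above background on no mutant array, and Vwa2, a matrix protein (0.962). Those most like Fmo5 were Trim29 (0.967), H60, a ligand of a natural killer cell receptor (0.944), and Ces1c, a carboxylesterase (0.942). Trim29 was well above background on only 3 wild-type arrays and 1 mutant array, and its levels ran from -5.40 to -3.35 on the wild-type arrays. Fmo5 and Trim29 shared wild-type array 3 as the highest and mutant array 4 as the lowest.

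The enzymes that share substrates, electrons or cofactors with flavin monooxygenases were counted from 6 lists. Of the cytochrome P450 and microsomal electron transfer genes 23 were tested, 2 rose and 1 fell, where 1.56% of all genes rose and 3.81% fell. The median difference was 0.17 against 0.016 over all genes. Cyp2s1, a P450 of epithelia, rose by 1.09 (SE 0.157, adjusted p = 0.0101 in limma). Cyp26b1, which breaks down retinoic acid, rose by 1.08 (adjusted p = 0.0200), a call lost without wild-type replicate 3 or 4 or mutant replicate 2 (adjusted p of 0.0580 to 0.0645 in limma). Cyp39a1, an oxysterol hydroxylase, fell by 0.56 (adjusted p = 0.0480) and kept the call only without mutant replicate 4 (adjusted p of 0.0645 to 0.131 in limma without another array).

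The lists of NADPH and FAD supply held 1 gene each that passed, where 3.81% of all genes passed lower. Of 14 genes of NADPH supply 1 fell, Mthfd1, a folate enzyme of the cytosol, at -0.76 (adjusted p = 0.0458 in limma), and the median was -0.13. Of 7 genes of FAD supply 1 fell, Enpp1, a nucleotide pyrophosphatase of the cell surface, at -0.95 (adjusted p = 0.0480 in limma), and the median was -0.11. Mthfd1 kept its call only without mutant replicate 4 (adjusted p of 0.0663 to 0.126 in limma without another array), and Enpp1 lost its call whichever array was left out (adjusted p of 0.0541 to 0.130 in limma). Of 7 genes around taurine and cysteamine 1 fell. It was Vnn1, the pantetheinase that releases cysteamine, a substrate of the family, at -1.79 (SE 0.269, adjusted p = 0.0112 in limma), with a list median of -0.04.

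Several conjugating enzymes fell. They were on a list of conjugation and other detoxication enzymes. Of its 34 tested genes 5 passed lower, where 3.81% of all genes were lower past the threshold. The median of the list was -0.0084. Gsta3, a glutathione S-transferase, had a mean level of 2.73 ± 0.35 in the wild-type and -0.14 ± 0.84 in the mutant (SD, n = 4 each), a difference of -2.87 (SE 0.398, adjusted p = 0.00958 in limma) or 7.33-fold. Ugt8a, the ceramide galactosyltransferase, fell by 1.95, Ugt2b34, a glucuronosyltransferase, by 1.39, and the microsomal glutathione transferases Mgst2 and Mgst1 by 1.30 and 0.75. Gsta3 and Ugt2b34 have close relatives in the genome, so which relative bound the probe is uncertain. Mgst1 kept its call only without mutant replicate 3 (adjusted p of 0.0538 to 0.104 in limma without another array). A list of receptors for foreign compounds and of factors around them had 11 tested genes and a median of 0.11. Of these 1 fell, where 3.81% of all genes did, and it was Hnf4a at -1.5 (adjusted p = 0.0103 in limma), which is known for liver and endoderm identity and is also on the hepatocyte list.

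Of the 12 list genes past the threshold, 7 passed whichever array was left out, and all 12 had the same sign in the authors' value table. With slide as a block 8 passed. Those that did not were Cyp39a1 (adjusted p = 0.0743 in limma), Mthfd1 (0.0836), Enpp1 (0.0886) and Mgst1 (0.0698). Ugt8a and Hnf4a were smaller in the authors' value table, at -0.90 and -0.79, and their mean levels in the mutant were -4.52 and -3.77. No list was tested as a set, and the epithelial markers given with Fmo2 fell on the same mutant arrays.

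**Figure D5:**
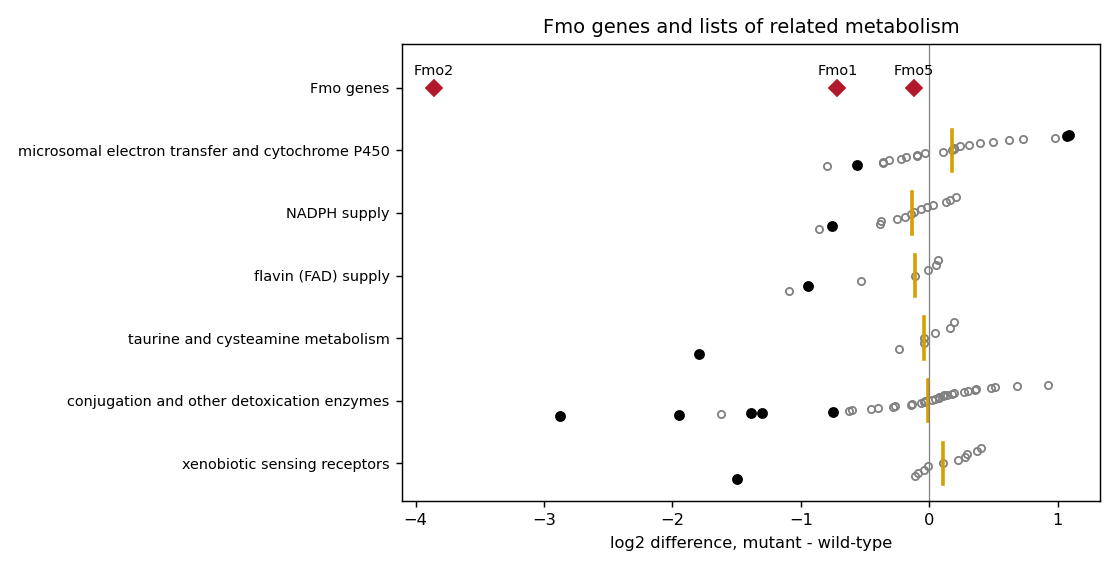
Log2 difference between mutant and wild-type arrays (horizontal axis) for the tested Fmo genes (red diamonds) and for each tested gene of 6 lists of related metabolism (circles, filled where an adjusted p in limma was under 0.05). Yellow bars are list medians, which lie between -0.13 and 0.17. Fmo2 lies at -3.86 and Gsta3 at -2.87 here, an order that turns in the authors' value table (-2.0 and -2.74) and with normexp (-1.87 and -2.70).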

How the data were processed

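Per the file headers, the scanner output was made with Agilent Feature Extraction 9.5.3.1. The processed signal that the authors deposited is a linear intensity with background subtracted, substitutes for dim spots and no scaling across arrays. Deposited mean and local background signals are raw intensity readings, and deposited control and quality columns are flags, counted as other. The authors' value table holds intensity values with a median of 227 on every array. Per the submitters' processing notes limma was used, and further steps are not given in the sources used here. Its rows were matched by the order of spots (rank correlation with the mean signal at least 0.999), and 6 of the 9 Fmo probes are among its 33067 features.

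Of 45018 spots, 1639 controls and spots flagged as outliers were left out. Log2 signals were scaled to each array's 75th percentile and the spots of a probe averaged. Probes well above background on at least 4 of 8 arrays were kept (27389), and a gene was its brightest kept probe (18506 genes). Probes took their symbol from a RefSeq accession (23374), from a like-named probe (4500) or from the file (13300). Genotypes were compared with limma 3.58.1 (lmFit and two-sided eBayes statistics, R 4.3.3), Benjamini-Hochberg adjusted over the genes tested, with no slide or replicate term. Python 3.11.15 and pandas 2.3.3 made the tables. The fits were tested on simulated data. No 2 arrays of a genotype were identical. The number of arrays limits the precision, and p-values measure the spread between 4 arrays per genotype, each counted as a pool of its own. Since the series text speaks of 3 biological replicates, whether all 4 are independent is not known.

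The members, the lists and the tests were chosen with earlier results of these data known. The text names all member probes, Fmo6 and Fmo9, genes within 500 kb, the 5 genes most like Fmo2 and the 3 most like Fmo1 and Fmo5, and up to 5 list genes past the threshold. Alternatives were other background treatment, scaling, filters, probe rules, slide or replicate terms, array weights and leaving out each array.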

Additional observations from a re-analysis of the deposited data

Results flagged for a closer look

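Among 36 groups of 4 arrays, for the 5 tested Fmo probes, the Fmo4 probe and the 12 named list genes, 1 group held a value that stood apart by Dixon's criterion, which chance meets in about 1 of 20 groups. It was the wild-type group of Cyp39a1, where the lowest array lay at -0.16 and the others between 0.085 and 0.13. The groups of the Fmo probes held no such value.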

How the results depend on the processing

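The family was picked on the Fmo2 difference, and the groups of the brighter Fmo2 probe did not overlap. The sign of the Fmo2 difference under the alternatives is therefore no support. The Fmo2 difference stayed below 0 in every alternative that gave a value. It was -1.87 with normexp, -2.0 in the authors' value table and -2.69 with the mean of the kept probes, and -4.34 to -3.37 with an array left out. Fmo1 lost its call with normexp (-0.20), in the authors' table (-0.17), with quantile normalization (-0.51), median scaling (-0.58), no filter on dim probes (-0.72) and slide as a fixed block (-0.66), and gave -0.83 to -0.62 with an array left out. Fmo4 gave -0.28 with normexp, -0.14 in the authors' table and -1.46 to -0.89 with an array left out. Fmo5 turned to 0.086 with quantile normalization and 0.019 with median scaling. The cause of these changes was not tested.

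Of all genes, 994 passed, against 583 with median scaling, which moved the median of all genes to 0.155, 419 without the filter, where more genes were tested, 1529 with slide as a random block, 1698 with array weights and 395 to 976 with an array left out. Of all calls 29.0% were higher in the mutant, against 41.7% in the authors' table, 10.02% without the filter, 7.94% with a replicate block and 9.47% without mutant replicate 1. Same-numbered arrays did not deviate together (correlations from -0.35 to 0.087). They always lay on different slides, so these correlations cannot decide whether the numbers pair the samples. With a replicate block 340 genes passed, and Fmo1 kept its difference of -0.72 and lost its call (adjusted p = 0.118 in limma). With probes above background on all 8 arrays, Fmo1, Fmo2 and Fmo4 gave no value, and the mean of kept probes gave none for Fmo4. Signal near background limits what can be said of Fmo1, Fmo4 and mutant Fmo2.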
